A study of Equus caballus with 4 samples.

Results

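The heat shock proteins described here are 10 genes chosen by symbol: the small heat shock proteins HSPB1, HSPB2, HSPB3, HSPB7, HSPB8 and CRYAB, and the ATP-dependent chaperones HSPA8, HSPH1, HSP90AA1 and HSPD1. They were read from 24 of the 43603 different probes of a horse gene expression array, and all 24 were tested. The cells were equine satellite cells (ESC), which are the stem cells of muscle, divide and fuse into new fibers, and were taken from m. semitendinosus of 6-month-old stallions and examined on day 3 of differentiation. The HMB group was kept for 24 h with 50 µM HMB (β-hydroxy-β-methylbutyrate, a metabolite of leucine) and received 3 mM H2O2 for the final 1 h of it. Control cells had H2O2 and no HMB, so both groups were exposed to the oxidant and no cells without H2O2 were compared here. Each of 4 arrays carried HMB cRNA labeled with Cy5 together with control cRNA labeled with Cy3.

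Each array gave 1 ratio per probe, HMB over control, and counted as 1 replicate. The dyes were never swapped and all 4 arrays lay on 1 slide, hence treatment and dye cannot be told apart. According to the methods, cultures were grown from all horses and the culture that scored best for viability and fusion was kept. The 4 replicates may thus all come from 1 horse, and their spread need not be that between animals. In the labels the control carries 1 and the same replicate number throughout, whereas the methods give 4 control samples. If that control was a single RNA, the errors below leave out how far controls vary. A difference was called when limma's p, adjusted by Benjamini-Hochberg, was at most 0.05 and the fold change (FC) at least 1.3, which is 0.38 on the log2 scale. Values after ± are SD over the arrays. Of 24670 tested probes, 4050 (16.4%) were called lower with HMB and 2996 (12.1%) were called higher. When each gene symbol was read on its brightest tested probe, its representative probe, 17.3% of 8498 symbols were called lower and 10.0% were called higher.

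Heat shock proteins are chaperones, which bind unfolded proteins and keep them from clumping. The small heat shock proteins have a shared alpha-crystallin domain and use no ATP, and some of them, but not all, hold their clients in large oligomers. In striated muscle several small heat shock proteins sit on the sarcomere, desmin and titin. The HSP70, HSP110, HSP90 and HSP60 proteins bind and release clients with cycles of ATP, and their co-chaperones set the pace of the cycle.

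The probes are 60-base oligonucleotides, and the file headers give their positions on EquCab1. Several genes are covered by probes that overlap, so that 24 probes stand for 12 sites. All 5 probes of HSPB3 lie within chr21:13575049-13575125 on the minus strand. The first and the last of them are shown here because their values are the lowest and the highest of that gene, with the 43 bases they share in capitals.
HSPB3 probe A_69_P002215: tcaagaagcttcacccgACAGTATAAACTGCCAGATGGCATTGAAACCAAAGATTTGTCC
HSPB3 probe A_69_P002211: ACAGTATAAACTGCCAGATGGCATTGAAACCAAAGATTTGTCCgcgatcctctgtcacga
They hybridize to nearly the same stretch of RNA and are not independent measurements. HSPB7 was read by a single probe at chr2:35083029-35083088 on the plus strand, which is shown because it ends in a stop codon, in capitals.
HSPB7 probe A_69_P087371: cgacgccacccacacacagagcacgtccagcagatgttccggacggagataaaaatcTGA
The probes of HSPB8 (chr8:14466373-14471752, minus strand) and HSP90AA1 (chr24:43295683-43296020, minus strand) are shown because each joins 2 exons. Between their ends the genome holds 5320 and 278 more bases than the probe, respectively, so they match the spliced RNA.
HSPB8 probe A_69_P065156: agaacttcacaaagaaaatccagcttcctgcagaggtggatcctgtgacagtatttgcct
HSP90AA1 probe A_69_P002106: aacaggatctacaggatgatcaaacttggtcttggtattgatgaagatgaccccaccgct

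Of the 10 genes, 6 were called lower with HMB on their representative probes and 0 were called higher, beside 17.3% and 10.0% of all symbols. The 6 comprised 5 of the 6 small heat shock proteins (HSPB2, HSPB3, HSPB7, HSPB8 and CRYAB) and 1 of the 4 ATP-dependent chaperones (HSPH1). HSPB3 and HSPB7 were tested through the control channel, in which they were higher: their HMB channel was well above background on 3 and 1 of 4 arrays, respectively. When both channels had to be above background, 8 of the 10 genes were tested and 4 were called lower (HSPB2, HSPB8, CRYAB and HSPH1), beside 14.7% of the probes tested in that way. At the level of probes, 14 of 24 were called lower, of which 13 belonged to small heat shock proteins and 1 to HSPH1, beside the 16.4% of all tested probes. The probes were not called independently, since 10 of the 14 belong to HSPB3 and CRYAB, and 8 were called when both channels had to be above background, a filter that leaves out the probes of HSPB3 and HSPB7. The mean ratio of all 10 genes was below 0 on the representative probe, but the median over all 8498 symbols was itself -0.09. The share of all symbols below 0 was not counted, and HSPA8 was above 0 with median centring (0.16).

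**Figure D1:**
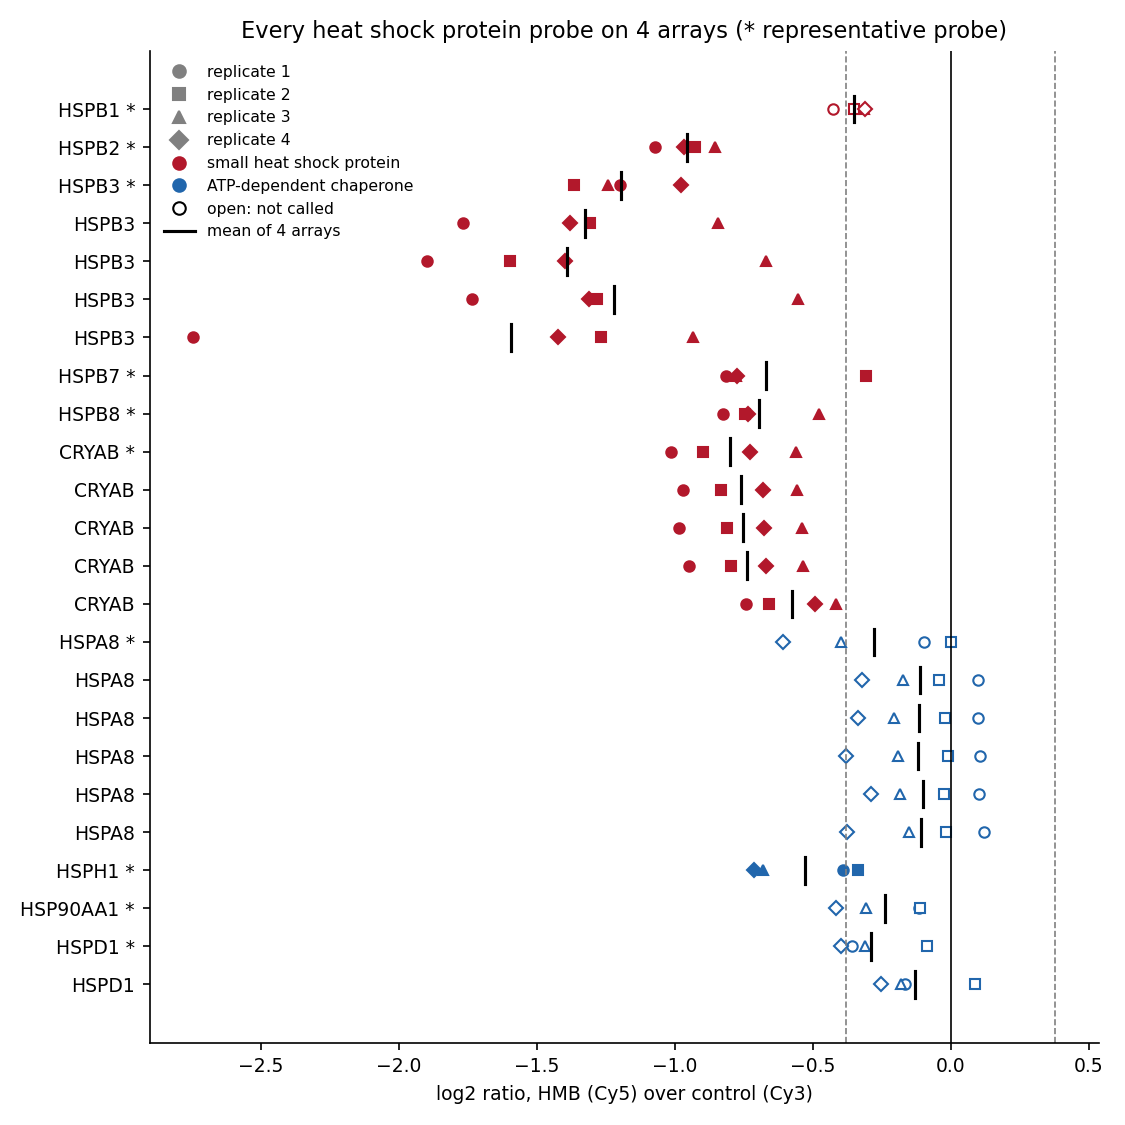
Log2 ratio of HMB over control (horizontal axis) of each of the 24 probes, 1 row per probe, with a marker for each of the 4 arrays, a black bar for their mean and dashed lines at an FC of 1.3. Filled markers belong to called probes. The 14 called probes lie to the left of the dashed line by their means, and the mean of the lowest HSPB3 probe is -1.59.

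In the same hybridizations, 6 of the 9 tested markers of differentiating muscle cells were called lower and 0 higher, beside 17.3% and 10.0% of all symbols. Their median log2 ratio was -0.93. Their summed signal over 10 genes was 176022 to 197584 in the control channel and 68943 to 108504 in the HMB channel, and PAX7 was not well above background in either. The 6 were MYF5 (-1.49, called lower on all 6 of its probes), MYH3 (embryonic myosin, -1.38), DES (desmin, -1.22), ACTA1 (-1.10), CKM (-0.93) and CHRNA1 (-0.85). MYOG (0.03), MYMK (-0.09) and MYOD1 (0.32, adjusted p = 0.0441, above 0 on 3 of 4 arrays) were not called. Of 6 fibroblast markers, 4 were called higher, beside 10.0% of all symbols, and the median was 0.59. COL1A1 (0.18) and COL3A1 (0.06, with 3 of its 7 probes called higher) were not called on their representative probes. Summed signals were 221825 to 259557 in control and 252026 to 387134 in HMB. COL3A1 alone gave 129669 to 158708 of the control signal. Of 3 tested leukocyte markers, 2 were called higher (PTPRC, 0.51, and CD68, 0.88), beside 10.0% of all symbols. CD14 was not called (0.20, adjusted p = 0.0966). Sums over 5 genes were 15840 to 20161 in control and 19303 to 30903 in HMB, while CD3E and AIF1 were not well above background. The representative PTPRC probe alone read 12172 to 15755 in control, but only 6 of the 15 probes of PTPRC passed the filter for testing. None of the 4 adipocyte and 4 endothelial markers was tested, as none was well above background on all arrays in either channel. The part of these shifts in the ratios of the heat shock proteins was not tested, and fewer cells of a type and less RNA per cell cannot be told apart in such samples.

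The alpha-crystallin pair of chromosome 7 was among the clearest differences. CRYAB encodes alpha B-crystallin, a lens protein that is also abundant in muscle, where it binds desmin. HSPB2 encodes a partner of the myotonic dystrophy protein kinase, and the 2 genes are neighbors that are read in opposite directions: the probes lie 5336 bases apart, on the minus strand for CRYAB and on the plus strand for HSPB2. The HSPB2 probe (chr7:17119180-17119239) gave log2 ratios of -1.07, -0.93, -0.86 and -0.97 in replicates 1 to 4. All 4 values lay close together, with a mean of -0.96 ± 0.09, an FC of 1.94 and a limma adjusted p of 0.000126. Its processed signal was 48911 to 64249 in control and 25002 to 35509 in HMB, so the channels did not overlap.

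The representative CRYAB probe gave -1.01, -0.90, -0.56 and -0.73, a mean of -0.80 ± 0.20, an FC of 1.74 and an adjusted p of 0.000851. Replicate 3 was the least changed on each of its 5 probes, which lie within chr7:17113785-17113852 and are shifted by a few bases. Their means ran from -0.80 to -0.58, and all 5 were called lower, with adjusted p-values of 0.000844 to 0.00178. The signal of the representative probe was 41849 to 50865 in control and 23897 to 34442 in HMB, again without overlap.

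HSPB8 and HSPB7 encode small heat shock proteins of heart and skeletal muscle. HSPB8 works with the co-chaperone BAG3 in removing damaged filament proteins by autophagy, and HSPB7 binds filamin. The HSPB8 probe gave log2 ratios of -0.82, -0.75, -0.48 and -0.73, with a mean of -0.70 ± 0.15, an FC of 1.62 and an adjusted p of 0.000859. Replicate 3 was again the least changed, and the signals of 1694 to 1967 in control did not overlap those of 1019 to 1410 in HMB.

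HSPB7 gave -0.81, -0.31, -0.78 and -0.77, so that replicate 2 stood apart from the others. The mean was -0.67 ± 0.24, with an FC of 1.59 and an adjusted p of 0.00282. The probe was dim, with signals of 50.6 to 56.4 in control and 31.0 to 40.8 in HMB, and it cleared the background on 4 of 4 arrays in control but on 1 of 4 in HMB. With normexp background correction and loess the mean was -0.09 (adjusted p = 0.269), and with loess and no background correction it was -0.15 (adjusted p = 0.0798), so the call did not hold under either. The normexp alternative adds an offset of 50 to both channels, and the other leaves the background in both. Either shrinks the ratio of a spot this dim by arithmetic, and the size of that effect was not tested.

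HSPB3, a small heat shock protein that is found in muscle and heart and pairs with HSPB2, had the lowest mean of the 10 genes in the deposited ratios, but not with either background alternative given below. The representative probe gave log2 ratios of -1.20, -1.36, -1.24 and -0.98, with a mean of -1.20 ± 0.16, an FC of 2.29 and an adjusted p of 0.000114. Its signals, 58.7 to 80.5 in control and 28.4 to 34.0 in HMB, were those of a dim spot. Control was well above background on 4 of 4 arrays and HMB on 3 of 4.

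The other 4 HSPB3 probes were called lower as well, with means of -1.59 to -1.22 and adjusted p-values up to 0.00503, but in HMB they were well above background on 1 of 4 arrays. Their arrays spread widely: A_69_P002215 read -2.75 in replicate 1 and -0.94 in replicate 3, whereas the probe shifted by 17 bases read -1.20 and -1.24 on the same arrays. With normexp and loess the mean of the representative probe was -0.30 (adjusted p = 0.0277), under the FC of 1.3, and with no background correction and loess it was -0.46 (adjusted p = 0.000517), above the means of HSPB2 in both (-0.92 and -0.93).

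By a rule set on the ratios alone, the genes most like HSPB3 over the 4 arrays were FAM162B, C3H4orf22 and RBFOX1, out of 8488 symbols compared. The root mean square differences from HSPB3 were 0.03, 0.07 and 0.08 on the log2 scale. FAM162B gave -1.16, -1.35, -1.22 and -0.94, and its mean was -1.17 ± 0.17. The likeness holds for the deposited ratios: with normexp and loess, FAM162B was at -0.85, C3H4orf22 at -0.50 and RBFOX1 at -0.92, all below HSPB3 at -0.30.

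HSPB1 encodes HSP27, which binds actin and is found in most tissues. It gave -0.43, -0.35, -0.31 and -0.31, the smallest spread of the 10 genes, with a mean of -0.35 ± 0.05. The adjusted p was 0.00463, but the FC of 1.28 lay just under 1.3, and the gene was not called. The control signals of 31907 to 41433 overlapped those of HMB, 25706 to 33331, across arrays, although HMB was lower on each array. With median centring in place of lowess the mean was -0.01.

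**Figure D2:**
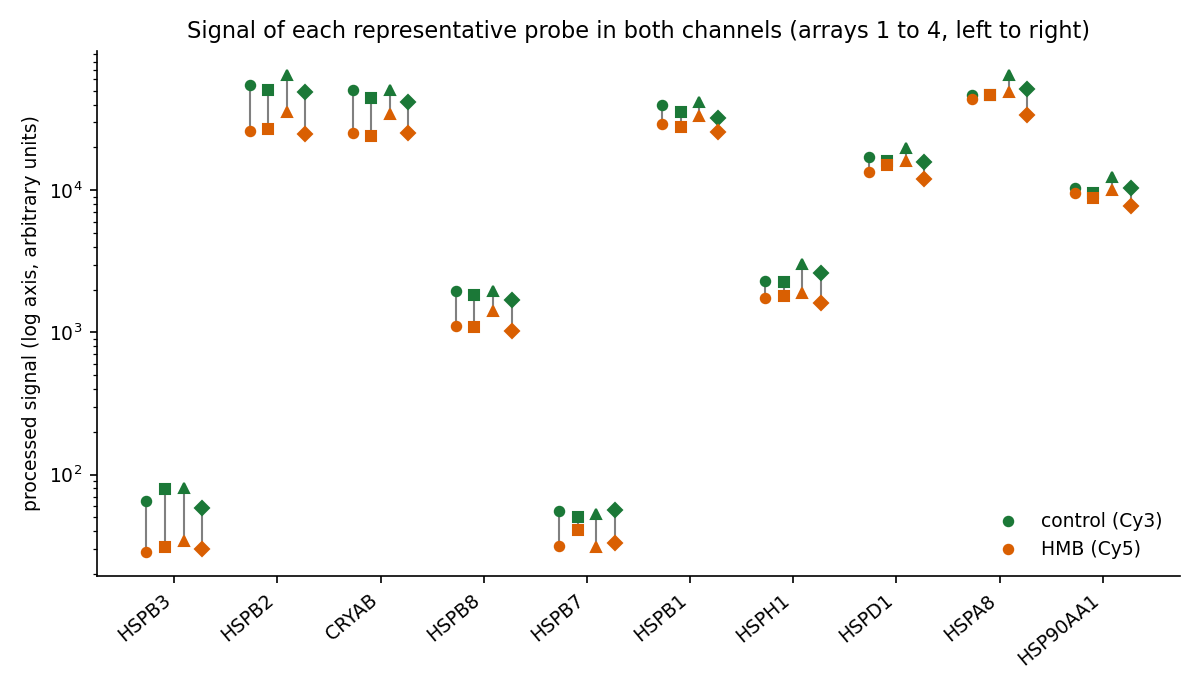
Processed signal of the representative probe of each gene (vertical log axis, arbitrary units) in control (Cy3) and HMB (Cy5), with a gray line joining the 2 channels of an array and arrays 1 to 4 from left to right. HSPB3 and HSPB7 sit between 28.4 and 80.5, and the control marker lies above the HMB marker for HSPB2, CRYAB and HSPB8 on each array.

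Among the ATP-dependent chaperones, HSPH1 was the only one of the 4 that was called. It encodes an HSP110 protein, which exchanges the nucleotide of HSP70 and holds unfolded proteins. Its probe (chr17:10389300-10389359) gave -0.39, -0.34, -0.68 and -0.71, with a mean of -0.53 ± 0.20, an FC of 1.44 and an adjusted p of 0.00416. Replicates 3 and 4 were lower than the other two, and the signals were 2264 to 3016 in control and 1605 to 1880 in HMB.

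HSPA8, the constitutive HSP70 (HSC70) of the cytosol, was read at 2 sites. The representative probe (chr7:26910576-26910635) gave -0.10, 0.00, -0.40 and -0.61, with a mean of -0.28 ± 0.28 and an adjusted p of 0.0848. The 5 overlapping probes at chr7:26912605-26912668 had means of -0.12 to -0.10 and adjusted p-values of 0.311 to 0.376, and each of them was above 0 in replicate 1 and lowest in replicate 4. No HSPA8 probe was called, and the spread over arrays was as large as the mean. With median centring in place of lowess, the mean of the representative probe was 0.16 (adjusted p = 0.273), so its direction depends on this step. Processed copies of this gene are common in mammalian genomes, and RNA of a near-identical copy would bind the same probes.

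HSP90AA1 encodes the stress-inducible HSP90 of the cytosol. It gave -0.11, -0.11, -0.31 and -0.42, with a mean of -0.24 ± 0.15 and an adjusted p of 0.0441, and its FC of 1.18 was under the threshold. HSPD1 encodes the mitochondrial chaperonin HSP60. Its 2 probes are adjacent (chr18:61300211-61300270 and chr18:61300272-61300331). The brighter one gave -0.36, -0.09, -0.31 and -0.40, with a mean of -0.29 ± 0.14 and an adjusted p of 0.0204, and the other gave -0.17, 0.09, -0.18 and -0.25, with an adjusted p of 0.211. Neither reached an FC of 1.3.

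Ordered by the mean ratio, from lowest to highest, the genes were HSPB3, HSPB2, CRYAB, HSPB8, HSPB7, HSPH1, HSPB1, HSPD1, HSPA8 and HSP90AA1. HSPB3 lay below HSPB2 by 0.24 ± 0.20 on the log2 scale, HSPB2 below CRYAB by 0.16 ± 0.13 and CRYAB below HSPB8 by 0.11 ± 0.09, each slightly more than the SD of the difference. HSPB3 led this order in the deposited ratios, but lay above HSPB2, CRYAB and HSPB8 with normexp and loess and with no background correction and loess. From HSPB8 on, each neighbor in the order differed from the next by less than the SD of the difference between them. The last 3 had means of -0.29, -0.28 and -0.24, so their order carries no weight.

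The comparison of the classes set the median of the 6 small heat shock proteins against the median of the 4 ATP-dependent chaperones on each array. It is a description, since the genes were chosen with earlier results known. The small class gave medians of -0.92, -0.82, -0.67 and -0.75 in replicates 1 to 4, and the ATP-dependent class gave -0.24, -0.10, -0.36 and -0.51. All tested probes had medians of -0.08 to -0.06 on the arrays. The small class was thus lower on 4 of 4 arrays, by 0.68, 0.72, 0.32 and 0.24, with a mean difference of -0.49 ± 0.25. Replicates 3 and 4 had the smaller gaps.

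The classes overlapped gene by gene. Of the 24 pairs of a small heat shock protein and an ATP-dependent chaperone, the small one had the lower ratio on all 4 arrays in 17. The 7 others were all 4 pairs with HSPB1 and the pairs of HSPB7, HSPB8 and CRYAB with HSPH1. The 17 thus hold every pair of HSPB3 and each pair of HSPB7 except that with HSPH1. Both genes were tested through the control channel, in which they were higher, so their pairs are weaker evidence. Pairs that share a gene are not independent. Taken over the mean ratios, the class medians were -0.75 and -0.28, a difference of -0.46. With normexp and loess, whose offset of 50 shrinks the ratios of dim spots such as HSPB3 and HSPB7, the difference was -0.16. With HSPB3 and HSPB7 left out, the difference was -0.46 in the deposited ratios and -0.36 with normexp and loess. The -0.46 could not change, because HSPB3 lay below and HSPB7 above CRYAB and HSPB8, the middle genes of the small class. It therefore does not show whether the difference in the deposited ratios depends on HSPB3 and HSPB7. HSPB3 and HSPB7 were left out after their values were seen, because their probes are dim.

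**Figure D3:**
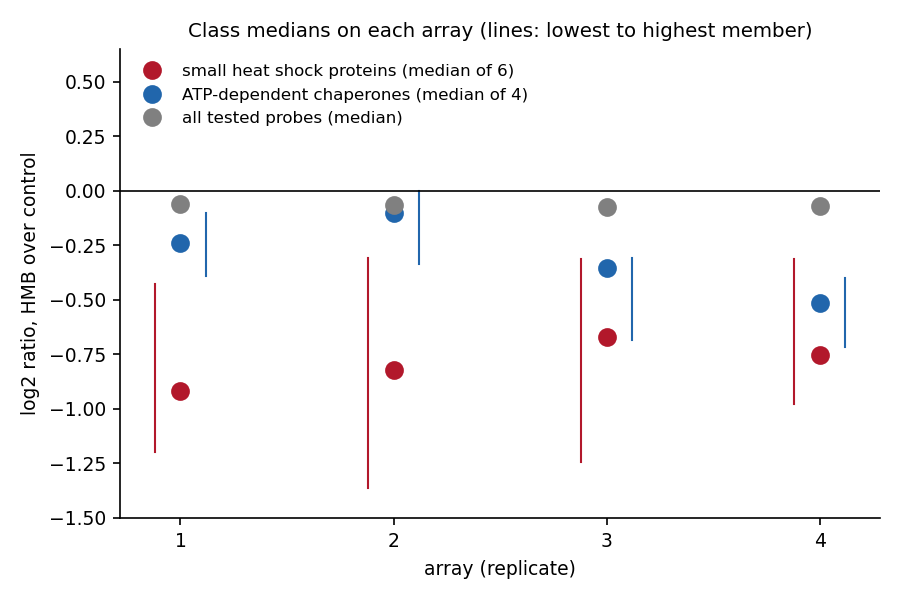
Median log2 ratio of HMB over control (vertical axis) on each array (horizontal axis) for the 6 small heat shock proteins, the 4 ATP-dependent chaperones and all tested probes, with lines from the lowest to the highest gene of each class. The small class is lower on 4 of 4 arrays, and the lines of both classes overlap on replicates 2, 3 and 4.

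Other genes of the chaperone system were read from 8 lists of 100 genes, of which 96 were on the array and 83 were tested. Of these, 17 (20.5%) were called lower and 5 higher, with a median of -0.15, beside 17.3% and 10.0% and a median of -0.09 over all symbols. The share called lower was thus near that of all symbols.

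Of 5 further genes listed by name with the small heat shock proteins, 2 were tested and 0 were called. HSPB6 (HSP20, a small heat shock protein of muscle) gave 0.44, 0.03, 0.61 and 0.17, with a mean of 0.31 ± 0.26 and an adjusted p of 0.0519. It was above 0 on each array, unlike the members of its family described above, but with spike-in centring its mean was -0.18. Without replicate 2 the mean was 0.41 and the gene was called higher (adjusted p = 0.0347). HSPB11 gave a mean of -0.27 ± 0.11 (adjusted p = 0.0197, FC 1.20).

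Among the other HSP70 and HSP110 proteins, 2 of 10 (20%, beside 17.3% of all symbols) were called lower, 0 were called higher, and the median was -0.22. HSPA9 (mortalin, the HSP70 of mitochondria) had a mean of -0.52 ± 0.09 with an adjusted p of 0.00142, and all 7 of its probes were called lower. HSPA6, a strictly inducible HSP70, had a mean of -0.55 ± 0.20 (adjusted p = 0.00375). For HSPA6 the mean was -0.16 (adjusted p = 0.0628) with normexp and loess.

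HSPA4, an HSP110 protein, was not called on its representative probe (-0.31 ± 0.08, adjusted p = 0.00925, FC 1.24), although its other 2 probes were. The mean over its probes was -0.48 (adjusted p = 0.00212). HSPA1A, the inducible HSP70, had a mean of -0.29 ± 0.19 (adjusted p = 0.0313, FC 1.23), and RefSeq now gives its accession to HSPA1B, a near-identical copy. The ER chaperones HSPA5 (-0.03 ± 0.16) and HYOU1 (0.02 ± 0.13) had means near 0, and HSPA5 gave 0.27 (adjusted p = 0.0210) with median centring. HSPA1L, HSPA4L, HSPA13 and HSPA14 had means of -0.29, -0.13, -0.15 and -0.07 and were not called.

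Of the other HSP90 proteins, HSP90AB1, the constitutive cytosolic form, was called lower. It gave -0.60, -0.49, -0.57 and -0.85, with a mean of -0.63 ± 0.16 and an adjusted p of 0.00141, and 5 of its 6 probes were called. With median centring its mean was -0.09 (adjusted p = 0.319). HSP90B1 of the ER (-0.29 ± 0.13, adjusted p = 0.0190) and TRAP1 of mitochondria (-0.15 ± 0.11, adjusted p = 0.116) were not called, and the mean of HSP90B1 was 0.02 with median centring.

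The chaperonin list, the ring complex that folds actin and tubulin, had 3 of 8 tested genes called lower (37.5%, beside 17.3% of all symbols). It had 0 called higher and a median of -0.29. The 3 were CCT4 (-0.57 ± 0.20, adjusted p = 0.00324), CCT5 (-0.49 ± 0.17, adjusted p = 0.00428) and TCP1 (-0.43 ± 0.20, adjusted p = 0.00979). None of the 3 was called with median centring, where their means were -0.16, -0.26 and -0.14, and TCP1 was not called without replicate 3 (-0.37, adjusted p = 0.0406) or without replicate 4 (-0.37, adjusted p = 0.0379).

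Of the J-domain proteins, which bring clients to HSP70 and start its ATP hydrolysis, 6 of 33 (18.2%) were called lower and 3 higher. Of all symbols, 17.3% were called lower and 10.0% higher, so the share called lower was near that of all symbols. The median was -0.05, and 0.03 with median centring. With normexp and loess 1 was called lower and 2 higher, and with no background correction and loess 2 and 2. Among those called lower were DNAJA4 (-0.59 ± 0.12, adjusted p = 0.00117) and DNAJC12 (-0.52 ± 0.10, adjusted p = 0.00155). DNAJC13, a protein of endosomes, gave 0.66, 0.96, 1.09 and 0.65, with a mean of 0.84 ± 0.22 (adjusted p = 0.000929). DNAJC1 of the ER had a mean of 0.53 ± 0.08 (adjusted p = 0.00118). With spike-in centring the means of DNAJC13 and DNAJC1 were 0.35 and 0.04, under the threshold.

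Of the BAG proteins and other nucleotide exchange factors, 2 of 9 (22.2%, beside 17.3% of all symbols) were called lower and 0 higher. The median was -0.20. BAG2, which inhibits the ubiquitin ligase CHIP, gave -1.01, -1.22, -1.03 and -0.91, with a mean of -1.04 ± 0.13, an FC of 2.06 and an adjusted p of 0.000133, and all 4 of its probes were called lower. BAG1 had a mean of -0.50 ± 0.06 (adjusted p = 0.00127) on the representative one of its 2 probes, both called lower. BAG1 was not called with median centring, where its mean was -0.37, or with treat (adjusted p = 0.282). BAG3, the partner of HSPB8, had a mean of 0.17 ± 0.21 with an adjusted p of 0.168, as read from 1 probe. It was not called and is named here after its values were seen.

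The HSP90 co-chaperones had 2 of 15 called lower (13.3%) and 2 called higher, beside 17.3% and 10.0% of all symbols. Their median was -0.10, and 0.01 with median centring. UNC45B, the chaperone of muscle myosin, gave -0.89, -0.97, -0.83 and -1.01, a narrow range with a mean of -0.92 ± 0.08 and an adjusted p of 0.000131. Its relative UNC45A had a mean of -0.40 ± 0.12 (adjusted p = 0.00490). FKBP5, an immunophilin induced by glucocorticoids, gave 0.85, 1.24, 0.63 and 0.37, with a mean of 0.77 ± 0.37 (adjusted p = 0.00563), and PPID had a mean of 0.44 ± 0.19 (adjusted p = 0.00791). With spike-in centring FKBP5 had a mean of 0.28 (adjusted p = 0.112), and neither it nor PPID was called with spike-in centring, treat or the methods' t-test. The mean of PPID was -0.05 with spike-in centring and 0.35 without replicate 2, both under an FC of 1.3. The mean of UNC45A was -0.36 without replicate 2 and -0.38 without replicate 4, also under an FC of 1.3. UNC45A lost its call in 6 of 19 alternatives, which include treat, median centring and both background alternatives.

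The heat shock factor list holds the transcription factors that switch on chaperone genes, and their binding proteins. Of its 3 tested genes, 1 (33.3%) was called lower, beside 17.3% of all symbols. HSF2 gave -0.67, -0.58, -0.63 and -0.69, with a mean of -0.64 ± 0.05 and an adjusted p of 0.000417, and all 7 of its probes were called lower. HSF1, the main factor of the stress response, had a mean of -0.04 ± 0.14 (adjusted p = 0.660), and HSBP1, which binds it, had a mean of -0.07 ± 0.17 (adjusted p = 0.488). Both were above 0 with median centring, at 0.04 and 0.06.

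**Figure D4:**
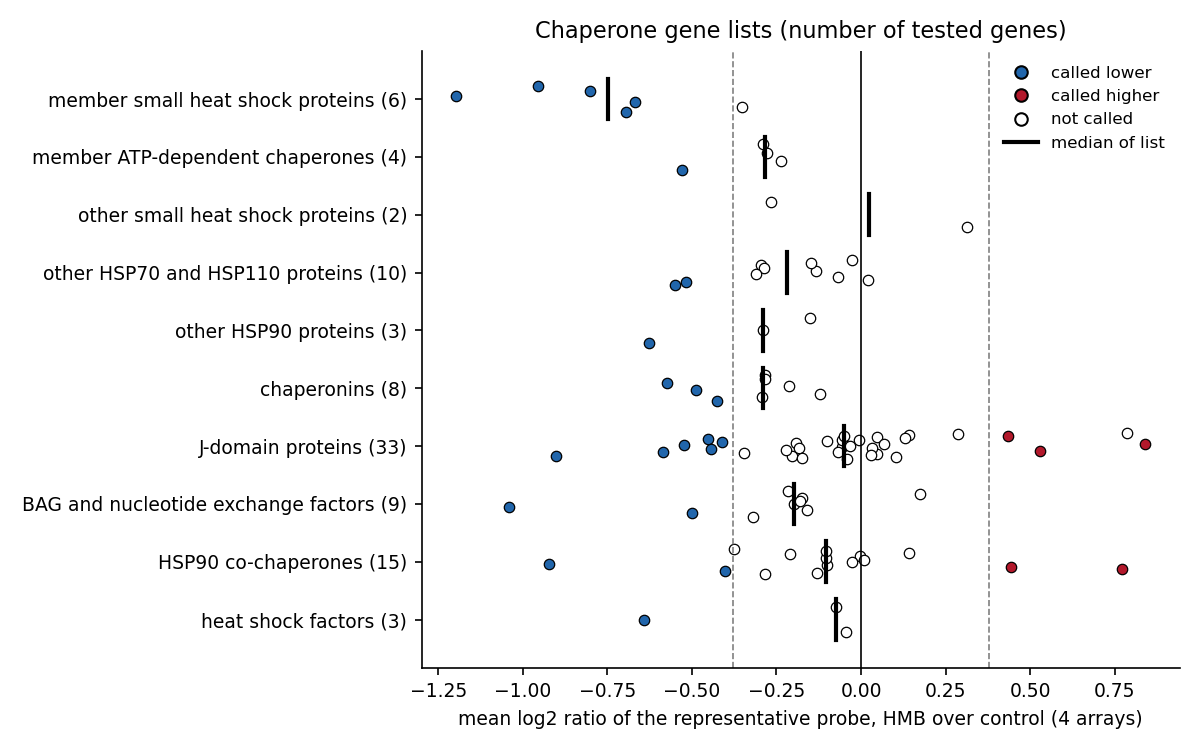
Mean log2 ratio of HMB over control (horizontal axis) of each tested gene, by list, with a black bar for the median of the list and dashed lines at an FC of 1.3. Blue points were called lower and red points higher. The 6 small heat shock proteins have the lowest median, -0.75.

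The calls were compared across ways of processing the same spots. CRYAB, HSPB2 and HSPB8 were called lower in all 19 alternatives. HSPH1 was called in 18 of 19, and limma's treat, which tests against the threshold itself, did not call it (adjusted p = 0.371). Scaling the arrays to spike-in RNA moved the median of all tested probes by -0.49, so that all 10 genes were called lower beside 70.2% of the probes. Relative to the median of all probes, the small class was at -0.68 and the ATP-dependent class at -0.22. That scaling shifts all probes of an array alike and cannot move these values. They were -0.58 and -0.09 with median centring, and -0.45 and -0.29 with normexp and loess. The split of all calls also moved with the background correction, from 4050 lower and 2996 higher to 1594 and 1945 with normexp and loess and to 1771 and 2669 with no background correction and loess, and was 17324 and 1247 with spike-in centring.

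**Figure D5:**
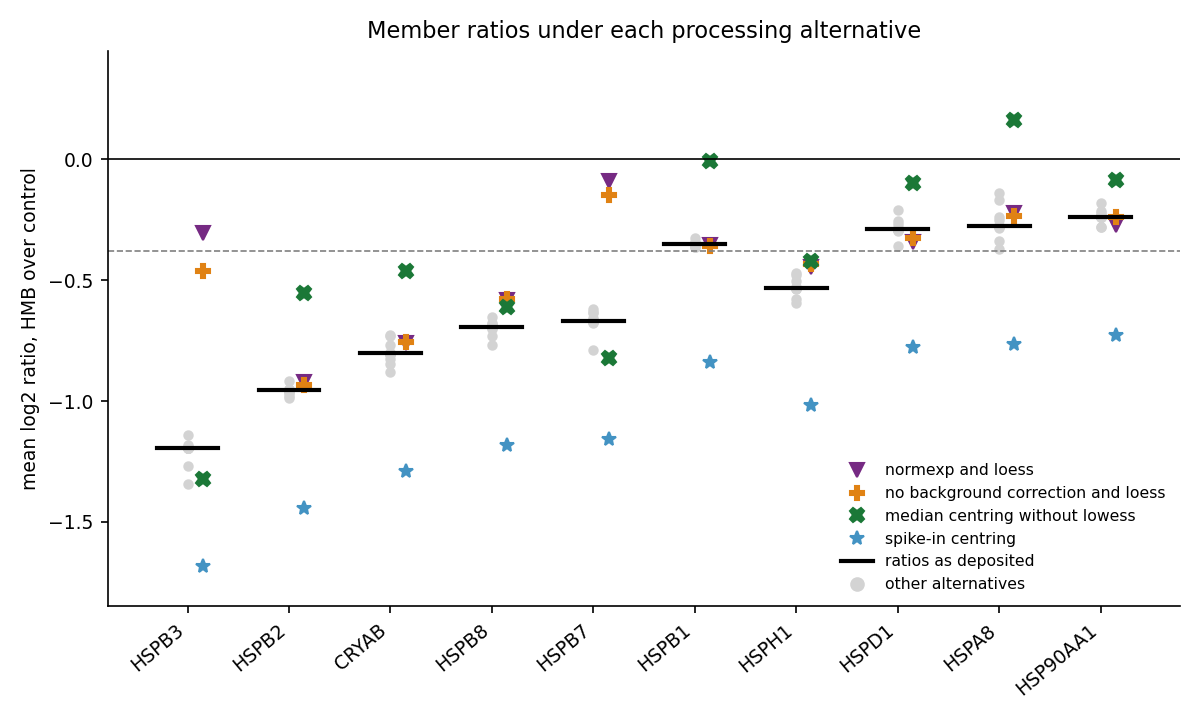
Mean log2 ratio of HMB over control (vertical axis) of each gene in the deposited ratios (black bar) and under each alternative (markers), with a dashed line at an FC of 1.3. HSPB3 and HSPB7 move towards 0 with both background alternatives, to -0.30 and -0.09 with normexp and loess, while HSPB2 stays between -1.44 and -0.55 throughout.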

How the data were processed

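Expression in equine satellite cells was read on 4 horse arrays, each with a Cy5 and a Cy3 channel. The intensity values in the deposited scanner files are, per the file headers, the output of Feature Extraction 10.10.1.1, with the background subtracted and linear and lowess normalization. The log10 ratios of Cy5 over Cy3 that the authors deposited were multiplied to log2. The authors' table holds the same log10 ratios. Control spots and marked spots (13 to 35 per array) were left out, and 0 spots were saturated. A tested probe was well above background in the same channel on all 4 arrays and had a ratio on at least 3. Ratios were tested against 0 in R 4.3.3 with limma 3.58.1 (intercept, empirical Bayes) and corrected by Benjamini-Hochberg over all 24670 tested probes; the tests were tried on simulated data. Ratios of dim spots depend on the background correction and on the offset added with normexp, which shrinks them. Symbols are those of the files (24731 probes), of RefSeq accessions (898), of synonyms (231) or of descriptions (36), and 17707 probes have none. The representative probe was the tested probe with the highest mean intensity.

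The genes and lists were chosen with earlier results of these data known. The genes named are all 10, each tested gene of the other small heat shock protein, HSP70, HSP90 and heat shock factor lists, up to 5 called genes of each other list (1 of them is not reported here), and the 3 symbols closest to HSPB3 by root mean square difference. Alternatives were the methods' t-test, treat, trend with robust, array weights, normexp (offset 50) or no background correction with loess, median centring, scaling, GC and spike-in corrections, the authors' table, other filters, marked spots kept, the mean over a gene's probes, and leaving out each replicate. No normalization between arrays was added.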

Additional observations from a re-analysis of the deposited data

Results flagged for a closer look

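In 1 of 62 sets of 4 arrays examined (the 24 probes, the class medians and the genes named by the rule, which leaves out DNAJC21, described below), 1 array stood apart. The HSPB7 ratio of replicate 2 (-0.31) was separated from the others, which lay between -0.81 and -0.77, by 0.92 of the whole range. Chance alone would set apart about 5% of such sets.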

How the results depend on the processing

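Across the alternatives, the ratios of the 10 genes were recomputed 188 times, and 178 times the direction and the call were those reported. The call was lost for HSPB3 with normexp and loess, for HSPB7 with treat and both background alternatives, and for HSPH1 with treat. With both channels above background HSPB3 and HSPB7 were not tested, and 4 of the 10 genes were called lower. HSPA8, HSPB1, HSP90AA1 and HSPD1 became called lower with spike-in centring and with no other alternative, by the shift it gives all probes. The cause of the other changes was not tested, apart from counts that fell with fewer probes tested. Without each replicate in turn, 6 of the 10 genes were called lower throughout. The test of the ratios already pairs HMB with control on each array, and no other pairing was fitted. With 4 arrays, 1 slide and no dye swap, the precision is that of 4 ratios, and probes near background have uncertain ratios. 

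With spike-in centring, 18571 probes, 24 probes of the 10 genes and all 10 genes were called, 71 other chaperone genes were called lower and 0 higher. The class medians were then -1.24 (small) and -0.77 (ATP-dependent), and the list medians were -0.46 (other small heat shock proteins), -0.71 (other HSP70 and HSP110), -0.78 (other HSP90), -0.78 (chaperonins), -0.54 (J-domain), -0.69 (BAG), -0.59 (co-chaperones) and -0.56 (heat shock factors). HSPB6 (-0.18), HYOU1 (-0.47) and PPID (-0.0455) changed direction. With median centring, the class medians were -0.58 (small) and -0.0916 (ATP-dependent), 11 other chaperone genes were called lower, and the list medians were -0.0717 (other HSP90), -0.14 (chaperonins), 0.0337 (J-domain), -0.138 (BAG), 0.0102 (co-chaperones) and 0.0445 (heat shock factors). HSPA8 (0.162), HSPA5 (0.266), HSP90B1 (0.0206), HSF1 (0.0445) and HSBP1 (0.0568) changed direction. With normexp and loess, 3539 probes and 8 probes of the 10 genes were called, the small class was at -0.47 and its difference from the ATP-dependent class was -0.16, 10 other genes were called lower, the medians were -0.0692 (other HSP70 and HSP110) and -0.123 (BAG), and HSF1 was at 0.0291. With no background correction and loess, 4440 probes were called, the small class was at -0.52, 11 other genes were called lower, the medians were -0.0696 (other HSP70 and HSP110), 0.0323 (J-domain) and -0.102 (BAG), and HSF1 was at 0.0497. With treat, 2822 probes were called, 4 other genes lower and 1 higher. The methods' t-test called 3 other genes higher. With both channels above background, 8 probes of the 10 genes were called, and with the mean over the probes of a gene, 2350 symbols. Without each replicate in turn, the BAG median was -0.24 to -0.17. HSF1 ran from -0.0814 to 0.0228 (without replicate 4), HSPA5 from -0.0731 to 0.0495 (without replicate 4), HSPA14 from -0.122 to 0.0227 (without replicate 3) and HYOU1 from -0.0312 (without replicate 3) to 0.0733. The 2 settings that leave out HSPB3 and HSPB7 were chosen after seeing the data.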

Other observations

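DNAJC21, a J-domain protein that was not called, is named here after its values were seen. Its representative probe gave -0.43, -0.44, -0.58 and 4.59 in replicates 1 to 4, while its other tested probe was called lower with a mean of -0.67.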
